A study of Mus musculus with 16 samples.

Results

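Matricellular proteins were followed in RNA from mouse heart ventricles through 8 genes chosen by name: Postn (periostin), Tgfbi (transforming growth factor beta induced), Tnc (tenascin C), Spp1 (osteopontin), Sparc (osteonectin), Sparcl1 (hevin), Cilp (cartilage intermediate layer protein) and Cthrc1 (collagen triple helix repeat containing 1). They were 8 of the 22372 protein-coding genes in the deposited table, and all 8 passed the filter on low values. The 16 libraries came from male C57BL/6J mice, which were 10 to 12 weeks old when the experiment began, with 4 animals in each of 4 groups. Transverse aortic constriction (TAC) narrows the aortic arch with a suture, so that the left ventricle pumps against raised pressure, while sham surgery leaves the suture out. THZ1, a covalent inhibitor of the transcriptional kinases Cdk7, Cdk12 and Cdk13, was injected into the peritoneum (10 mg/kg, 2 times daily) starting on postoperative day 1 and ending on day 60. The groups were Sham-Veh (sham, vehicle), Sham-THZ1 (sham, THZ1), TAC-Veh (TAC, vehicle) and TAC-THZ1 (TAC, THZ1), and the labels name no transgene or deletion in any group. Each library was made from a piece of ventricle of 1 animal.

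Matricellular proteins are secreted into the matrix around cells, where they act less as scaffold than as signals. They bind integrins and other receptors, collagen and growth factors, and so alter adhesion, collagen assembly and the availability of transforming growth factor beta (TGF-beta). Many are low in the healthy adult heart and rise during development, injury and pressure overload, when activated fibroblasts are a main source. Periostin is a widely used marker of such fibroblasts.

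The promoters of 6 of the 8 genes were matched in a RefSeq table on GRCm38.p6, and Sparcl1 and Cthrc1 were not matched. The 6 genes had 9 annotated start sites, each with a window of 250 bases before the start. The windows below belong to Postn, Cilp and Spp1, which differed widely between groups, and to Tgfbi, which differed little. They are written 5′ to 3′ along the gene. Capitals mark the letters TATAAA, a form of the TATA box, or the core of the Smad-binding CAGA box (CCAGAC, or GTCTGG where it lies on the other strand).
Postn, chr3:54360857-54361106, plus strand: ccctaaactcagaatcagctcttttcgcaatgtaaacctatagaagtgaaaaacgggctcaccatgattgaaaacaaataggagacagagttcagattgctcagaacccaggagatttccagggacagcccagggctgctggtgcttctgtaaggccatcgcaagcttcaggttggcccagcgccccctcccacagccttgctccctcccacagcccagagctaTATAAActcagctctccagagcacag
Cilp, chr9:65264930-65265179, plus strand: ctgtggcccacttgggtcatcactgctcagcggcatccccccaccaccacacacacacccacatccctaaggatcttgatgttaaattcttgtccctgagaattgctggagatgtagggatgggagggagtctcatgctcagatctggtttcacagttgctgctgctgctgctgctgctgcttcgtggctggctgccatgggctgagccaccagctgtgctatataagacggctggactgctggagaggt
Spp1, chr5:104434861-104435110, plus strand: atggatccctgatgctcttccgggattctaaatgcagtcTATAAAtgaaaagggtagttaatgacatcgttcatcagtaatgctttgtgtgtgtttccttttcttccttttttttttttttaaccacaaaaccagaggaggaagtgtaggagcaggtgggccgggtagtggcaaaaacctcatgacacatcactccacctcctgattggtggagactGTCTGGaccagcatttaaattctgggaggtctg
Tgfbi, chr13:56609336-56609585, plus strand: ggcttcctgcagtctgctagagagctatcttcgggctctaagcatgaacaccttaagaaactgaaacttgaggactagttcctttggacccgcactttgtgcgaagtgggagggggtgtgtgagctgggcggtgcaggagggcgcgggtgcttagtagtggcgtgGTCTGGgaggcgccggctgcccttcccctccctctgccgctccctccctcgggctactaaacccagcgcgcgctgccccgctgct
Postn, shown at the second of its start sites, held TATAAA at 26 to 21 bases before the start. Its first start site, not shown, held the CAGA core at 192 to 187 bases. In Spp1, shown at the first of its start sites, TATAAA lay at 211 to 206 bases and the CAGA core at 33 to 28 bases before the start. The second start site of Spp1, not shown, held the CAGA core at 42 to 37 bases. Tgfbi held the CAGA core at 85 to 80 bases, and the Cilp window held none of the exact motifs searched. Cilp did hold tatataag near its start, a run close to TATAAA that the search did not cover. Among 32851 promoter windows of the same length, searched on both strands, 12.4% held TATAAA and 14.7% the CAGA core. The AP-1 motif (TGANTCA) was in 6.75% of all windows, the TEAD motif (GGAATG) in 12.6% and the CArG box in 1.47%, and none of the 9 windows of the 6 genes held a match to these. A match is a run of letters and not a measured binding site, and no marked motifs overlapped in the windows printed.

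Reads recovered in protein-coding genes were 21.4 to 35.8 M per library (M, mega, median 28.2), of which the mitochondrial genes took 33.2% to 44.7%. A value of 0 reads allows up to 3 reads at the same depth, and this limit covers counting error only. Values are normalized counts per gene, that is, reads divided by the library's size factor. Differences are given on the scale of log2(normalized count + 1) with their standard error (SE) and a limma p-value adjusted over 13331 genes within each comparison, and a gene was called at an adjusted p under 0.05. The TAC-Veh libraries enter both the comparison of TAC with sham under vehicle and that of THZ1 with vehicle in TAC, so the values of these comparisons are not independent. The genes followed here were chosen with earlier results of these data known. The shares over all genes set beside their counts are therefore a description and not a test.

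The first question was which of these genes responded to pressure overload under vehicle. Every gene of the 8 was called higher in TAC-Veh than in Sham-Veh, and in each the 4 TAC-Veh libraries lay above the 4 Sham-Veh libraries. Over all genes tested, 21.4% were called higher in this comparison, and in 18.2% the libraries lay apart in that direction. The median log2 difference was 3.08 over the 8 genes and -0.0030 over all genes. With libraries scaled to the reads outside mitochondrial genes, 3496 genes were called higher and 2361 lower, in place of 2857 and 3146, and the calls of the 8 genes did not change. With the further requirement of a log2 difference of at least 1, 6 genes stayed called, against 4.64% of all genes, and Sparcl1 and Tgfbi fell below it. One of the 8, Cthrc1, reached the filter minimum of 10 normalized counts in 0 of 8 sham libraries and so passed through its TAC libraries alone. For this gene a difference was built into the filter, and without it 7 of 7 genes were called higher.

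**Figure D1:**
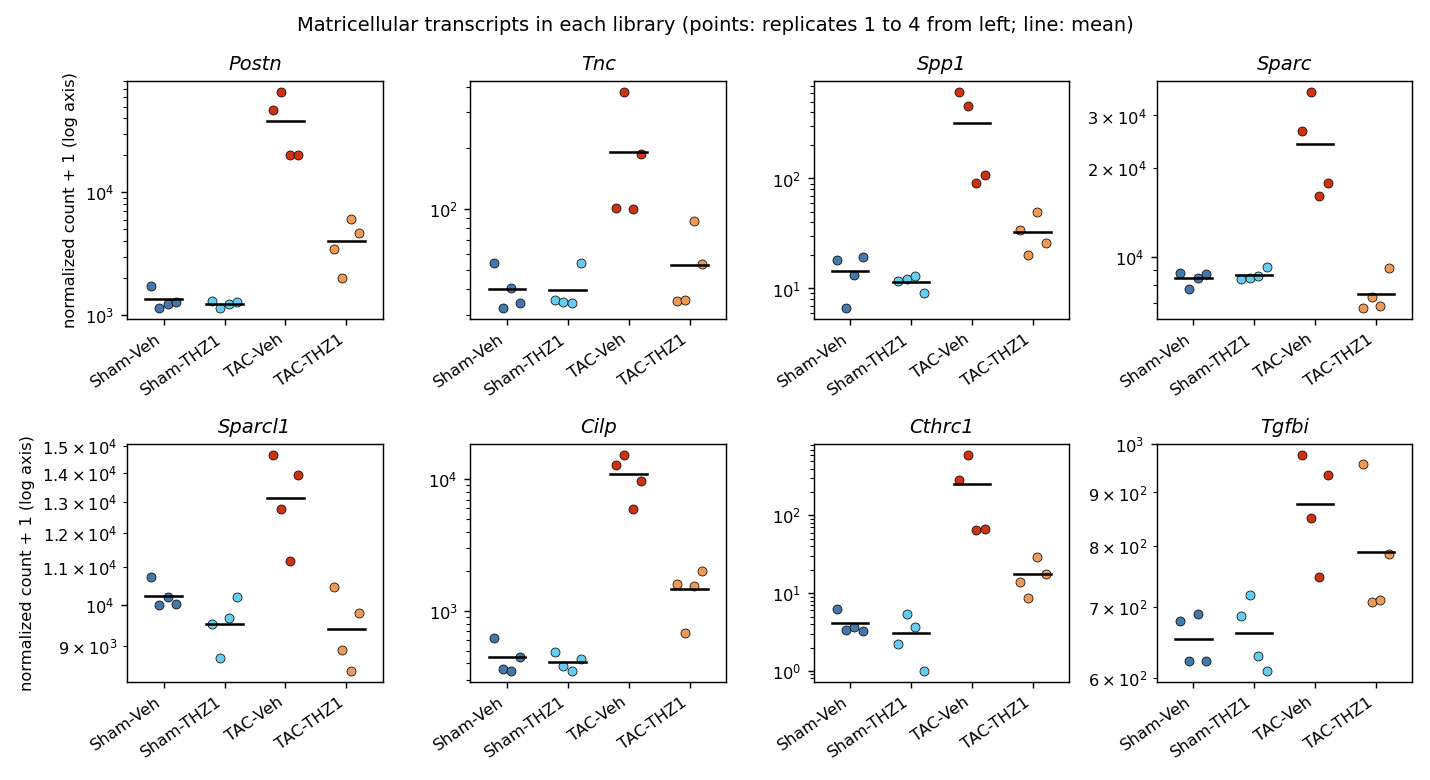
Normalized count plus 1 on a log axis for each gene in each of the 16 libraries, with replicates 1 to 4 from left to right in each group and a line at the mean of the normalized counts plus 1. The TAC-Veh points lie above both sham groups for all 8 genes, and the TAC-THZ1 points lie below the TAC-Veh points for all but Tgfbi.

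The second question was whether THZ1 altered these genes in constricted hearts. Of the 8, 7 were called lower in TAC-THZ1 than in TAC-Veh, and the libraries of the 2 groups did not overlap for those 7. Over all genes tested, 14.2% were called lower, and in 10.5% the libraries lay apart in that direction. The median log2 difference was -2.32 over the 8 genes and 0.01 over all genes. The scaling to reads outside mitochondrial genes gave 1440 genes higher and 2411 lower, in place of 2019 and 1899, with 7 of the 8 still lower. At a log2 difference of at least 0.89, the call held for 6 genes, against 3.62% of all genes, since Sparcl1 fell below it. Tgfbi was not called. Without Cthrc1, 6 of 7 genes were called lower.

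Periostin and Tgfbi are relatives that share repeated FAS1 domains, through which they bind collagen and integrins. Postn (chr3:54165031-54194961, plus strand, NCBIM37, as for every gene position given) stood at 1721, 1141, 1241 and 1289 normalized counts in the Sham-Veh libraries, numbered 1 to 4. In TAC-Veh the values were 46489, 65868, 20159 and 20098, and in TAC-THZ1 they were 3455, 2029, 6054 and 4704. Thus the lowest TAC-Veh library held several times as much as the highest TAC-THZ1 library, and all TAC-THZ1 libraries stayed above sham. The Sham-THZ1 values of 1306, 1147, 1226 and 1270 lay within the Sham-Veh range. The log2 difference was 4.65 (SE 0.34, adjusted p = 1.24e-07) for TAC under vehicle, or 25.0-fold, and -3.15 (SE 0.34, adjusted p = 3.97e-05) for THZ1 in TAC, or 8.88-fold lower. Because RNA was taken from bulk tissue, a change in the number of cells of a type and a change in RNA per cell cannot be told apart here or in any result below.

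Tgfbi (chr13:56710920-56740923, plus strand) had 678, 622, 689 and 622 normalized counts in Sham-Veh and 977, 850, 747 and 934 in TAC-Veh. The difference of 0.42 (SE 0.10, adjusted p = 0.00284) was a 1.34-fold rise. In TAC-THZ1 the values were 957, 708, 710 and 785, so replicates 1 and 4 lay within the TAC-Veh range and the groups overlapped. THZ1 in TAC gave -0.15 (95% interval -0.37 to 0.06, adjusted p = 0.261). This interval excludes a fall of the size seen for Postn. In Sham-THZ1 the range was 608 to 718.

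The ratio of Postn to Tgfbi within a library does not depend on how libraries are scaled. It ran from 1.80 to 2.54 among Sham-Veh libraries, 21.5 to 77.5 among TAC-Veh, 2.87 to 8.53 among TAC-THZ1 and 1.60 to 2.09 among Sham-THZ1. The mean log2 ratio was higher by 4.23 with TAC under vehicle and by 1.35 with TAC under THZ1, and -3.00 was the difference for THZ1 in TAC. For each of these the exact two-sided permutation p was 0.0286, the smallest that 4 against 4 libraries allow, and 0.0381 after adjustment over 8 ratio tests. THZ1 in sham gave -0.12 (exact permutation p = 0.486, adjusted p = 0.486).

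Tenascin C and osteopontin are integrin ligands of injured and remodelling tissue. Tenascin C loosens adhesion to fibronectin, and osteopontin also binds the receptor Cd44 and is made by macrophages among other cells. Tnc (chr4:63620819-63681760, minus strand) was low in sham, at 53.0, 31.3, 39.8 and 33.3 normalized counts in Sham-Veh. The TAC-Veh libraries held 99.9, 376, 99.1 and 186, and the TAC-THZ1 libraries 33.9, 34.4, 86.3 and 52.5. Replicate 2 of TAC-Veh stood highest, and TAC-THZ1 overlapped the Sham-THZ1 range of 33.4 to 52.7. The log2 difference was 2.05 (SE 0.37, adjusted p = 3.40e-04) for TAC under vehicle and -1.74 (SE 0.37, adjusted p = 0.00279) for THZ1 in TAC. Another gene, 8030451A03Rik, overlaps Tnc on the opposite strand, and reads were counted by strand.

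Spp1 (chr5:104864137-104870069, plus strand) had 17.0, 5.61, 12.4 and 18.4 normalized counts in Sham-Veh and 8.10 to 12.0 in Sham-THZ1. TAC-Veh fell into a high pair, 613 and 460 in replicates 1 and 2, and a low pair, 90.2 and 106 in replicates 3 and 4. TAC-THZ1 held 32.8, 19.1, 48.8 and 24.7, below every TAC-Veh library and above every sham library. TAC under vehicle gave a log2 difference of 4.11 (SE 0.52, adjusted p = 1.48e-05), and THZ1 in TAC gave -2.91 (SE 0.52, adjusted p = 9.46e-04).

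Sparc and its relative Sparcl1 bind collagen, and Sparc takes part in the handling of procollagen by fibroblasts. Sparc (chr11:55208002-55233582, minus strand) was abundant without constriction, at 8840, 7802, 8469 and 8718 normalized counts in Sham-Veh and 8440 to 9262 in Sham-THZ1. TAC-Veh held 26520, 36052, 15997 and 17753. In TAC-THZ1 the values of 6701, 7307 and 6837 lay below every sham library, and that of replicate 4, 9165, lay within the Sham-THZ1 range. The log2 difference was 1.43 (SE 0.18, adjusted p = 1.44e-05) for TAC under vehicle and -1.62 (SE 0.18, adjusted p = 4.50e-05) for THZ1 in TAC. Its fold, 2.70 up with TAC and 3.07 down with THZ1, was smaller than that of Postn, although the sham level was higher.

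Sparcl1 (chr5:104508130-104543107, minus strand) moved in the same directions by far less. It had 10734, 9984, 10186 and 10023 normalized counts in Sham-Veh and 14685, 12779, 11192 and 13923 in TAC-Veh, a difference of 0.35 (SE 0.09, adjusted p = 0.00313). TAC-THZ1 held 10451, 8897, 8436 and 9788, lower than TAC-Veh by -0.48 on the log2 scale (SE 0.09, adjusted p = 8.40e-04). The Sham-THZ1 range was 8717 to 10204. Gm16990 overlaps Sparcl1 on the opposite strand.

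Within libraries, Sparc was below Sparcl1 in every sham library and above it in every TAC-Veh library. The ratio of Sparc to Sparcl1 ran from 0.781 to 0.870 among Sham-Veh libraries and from 0.887 to 0.969 among Sham-THZ1. It ran from 1.28 to 2.82 among TAC-Veh libraries and from 0.641 to 0.936 among TAC-THZ1. Its mean log2 was higher by 1.08 with TAC under vehicle, and -1.13 was the difference for THZ1 in TAC. In sham hearts THZ1 moved it the other way, by 0.14, with no overlap between libraries. Each of the 3 had an exact permutation p of 0.0286 and an adjusted p of 0.0381. TAC under THZ1 gave -0.20 (exact permutation p = 0.114, adjusted p = 0.131).

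**Figure D2:**
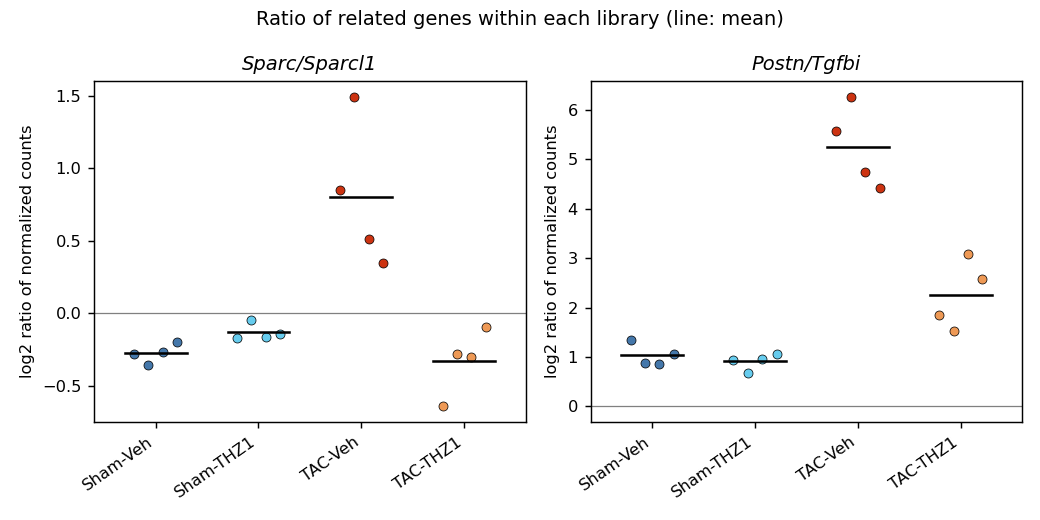
Log2 ratio of the normalized counts of Sparc to Sparcl1 (left) and of Postn to Tgfbi (right) in each library, with a line at the group mean and a grey line at 0, where both genes have equal counts. Sparc exceeds Sparcl1 in the 4 TAC-Veh libraries only, and the ratio of Postn to Tgfbi is above 20 in TAC-Veh and below 10 elsewhere on the linear scale.

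Cilp and Cthrc1 are secreted proteins of activated fibroblasts. Cilp binds and restrains TGF-beta, and Cthrc1 is linked to collagen deposition and cell migration. Cilp (chr9:65112987-65128413, plus strand) stood at 619, 360, 351 and 443 normalized counts in Sham-Veh and 350 to 487 in Sham-THZ1. TAC-Veh held 12872, 15356, 5963 and 9622, and TAC-THZ1 held 1610, 684, 1544 and 1998. TAC-Veh and TAC-THZ1 overlapped neither each other nor sham, and replicate 2 of TAC-THZ1 came nearest to sham. TAC under vehicle gave 4.58 (SE 0.30, adjusted p = 6.45e-08), or 23.9-fold, and THZ1 in TAC gave -2.93 (SE 0.30, adjusted p = 2.94e-05), or 7.60-fold lower.

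Cthrc1 (chr15:38908478-38918667, plus strand) was close to 0 in sham, with 5, 3, 3 and 2 reads in Sham-Veh and 1, 5, 2 and 0 reads in Sham-THZ1. TAC-Veh libraries held 241, 848, 64 and 78 reads, which are 283, 606, 63.4 and 66.4 normalized counts. TAC-THZ1 held 13.1, 7.64, 28.5 and 16.8 normalized counts, above all sham libraries. The log2 difference was 5.37 (SE 0.66, adjusted p = 1.01e-05) for TAC under vehicle and -3.38 (SE 0.66, adjusted p = 0.00153) for THZ1 in TAC. Its size depended in part on replicate 2 of TAC-Veh, without which the values were 4.74 and -2.75, both still called. For TAC under vehicle a pseudocount of 5 gave 4.41, and edgeR on the recovered reads gave 6.32.

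In sham hearts THZ1 left no gene of the 8 called by limma, and 0 had an unadjusted p under 0.05. EdgeR and DESeq2 on the recovered reads also called 0 of the 8. Of all genes, limma called 0.0225% higher and 0.045% lower in this comparison, that is 9 genes, against 513 with array weights and 465 with the 2 groups fitted alone, and these fits called 0 of the 8 as well. Intervals were narrowest for Sparcl1 and Tgfbi and widest for Cthrc1, and did not simply follow abundance. The fit estimates the spread of a gene over all groups together. The TAC libraries, which this comparison does not use, thus also set the width. For Sparc the log2 difference was 0.04 (95% interval -0.35 to 0.42), for Sparcl1 -0.11 (-0.29 to 0.08), for Tgfbi 0.01 (-0.20 to 0.23) and for Postn -0.11 (-0.83 to 0.62). For Cthrc1, at 0 to 5 reads a library, the interval ran from -2.03 to 0.74, so neither a fall nor a small rise was excluded. Its low reads and its spread in TAC libraries both enter this width.

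Under THZ1, 3 of the 8 genes were called higher with TAC than with sham surgery, namely Postn by 1.60 (SE 0.34, adjusted p = 0.00449), Cilp by 1.73 (SE 0.30, adjusted p = 0.00161) and Cthrc1 by 2.64 (SE 0.66, adjusted p = 0.00992). Cthrc1 passed the filter through TAC libraries alone, as above, though the 4 TAC-Veh libraries, which this comparison does not use, were enough for that. Its call was lost with edgeR (adjusted p = 0.0873). Without Cthrc1, 2 of 7 genes were called higher. Of all genes, 11.4% were called higher in this comparison. For Spp1 the libraries did not overlap, yet the log2 difference of 1.42 (SE 0.52, adjusted p = 0.0583) was not called. Tnc (0.33, adjusted p = 0.541), Tgfbi (0.25, adjusted p = 0.0772), Sparc (-0.22, 95% interval -0.61 to 0.16, adjusted p = 0.393) and Sparcl1 (-0.02, 95% interval -0.20 to 0.16, adjusted p = 0.874) were not called. Libraries lay apart, with TAC-THZ1 higher, for 4 of the 8 genes and for 15.7% of all genes.

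Whether THZ1 acted differently in constricted and sham hearts was tested by the interaction, the log2 difference for THZ1 in TAC minus that in sham. It was called for 5 of the 8 genes, all lower, against 5.62% of all genes. The difference of differences was -3.04 (SE 0.49, adjusted p = 0.00226) for Postn, -2.85 (SE 0.43, adjusted p = 0.00223) for Cilp and -1.66 (SE 0.26, adjusted p = 0.00225) for Sparc. These 3 stayed called in every alternative run. Spp1 (-2.69, SE 0.74, adjusted p = 0.0321) and Tnc (-1.71, SE 0.52, adjusted p = 0.0480) were called too, but edgeR gave adjusted p-values of 0.0790 and 0.0595. Leaving out replicate 2 of TAC-Veh gave -2.36 (adjusted p = 0.0684) for Spp1 and -1.31 (adjusted p = 0.0794) for Tnc, and leaving out 1 library at a time ended the Spp1 call in 8 of 16 fits and the Tnc call in 12 of 16. Sparcl1 (-0.38, adjusted p = 0.0570), Cthrc1 (-2.73, adjusted p = 0.0694) and Tgfbi (-0.17, adjusted p = 0.475) were not called.

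**Figure D3:**
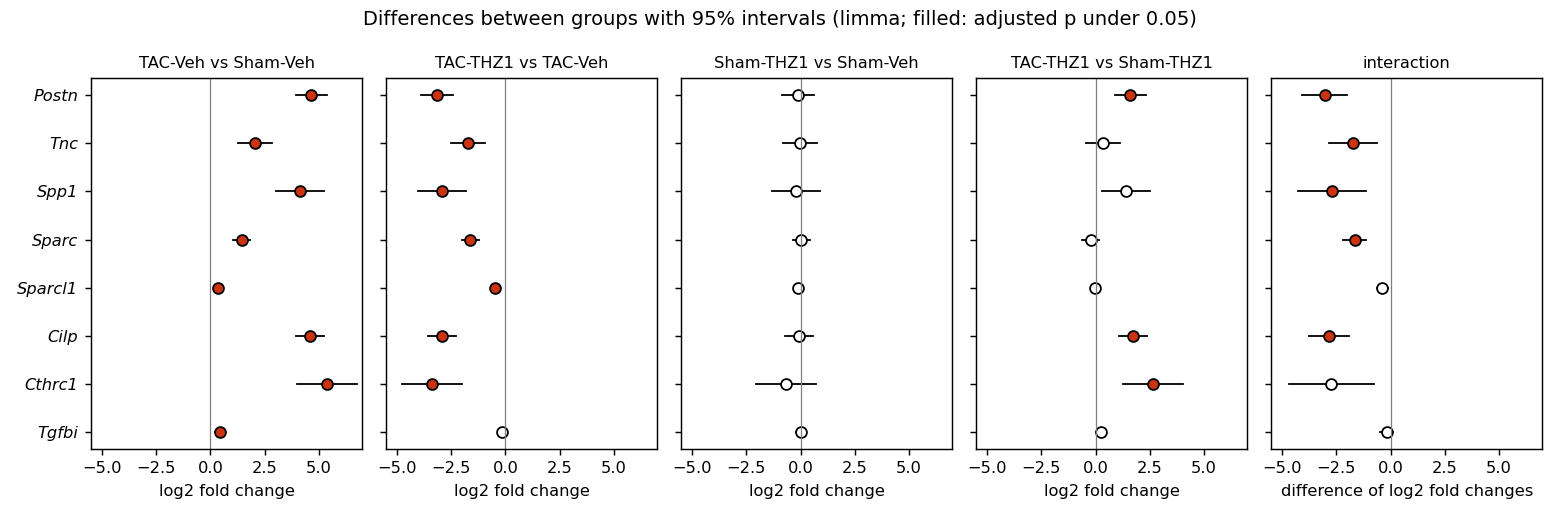
Log2 differences of the 8 genes with 95% intervals in 4 comparisons, and the interaction as a difference of such differences, with filled points where the adjusted p is under 0.05. All 8 points are filled and right of 0 for TAC under vehicle, 7 are filled and left of 0 for THZ1 in TAC, and none is filled for THZ1 in sham.

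The spread among animals differed between genes and groups. Over all genes tested, the median SD of the log2 value among 4 libraries was 0.10 for Sham-Veh and 0.09 for Sham-THZ1, against 0.22 for TAC-Veh and 0.14 for TAC-THZ1. In TAC-Veh it was 1.60 for Cthrc1, 1.42 for Spp1, 0.91 for Tnc, 0.87 for Postn, 0.60 for Cilp and 0.54 for Sparc, each larger than in at least 90% of genes. Sparcl1 and Tgfbi had an SD of 0.17, below the median gene. Replicates 1 and 2 of TAC-Veh held the highest value of the group for 3 and 5 of the 8 genes, and replicate 3 the lowest for 7. In TAC-THZ1, replicate 2 was lowest for 5 genes. Replicate 2 of TAC-Veh was also the library with the lowest summed cardiomyocyte markers of the group, 0.638 M normalized counts, and with the lowest mitochondrial share. Without it, limma still called all 8 genes higher with TAC, and 7 of them lower once THZ1 was added, and the log2 difference for Postn was 4.32 with TAC and -2.82 with THZ1.

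Per kilobase of exon, so that genes can be compared, the order of the levels changed with constriction. In Sham-Veh the mean normalized count per kilobase was 3286 for Sparcl1 and 2512 for Sparc, far above 220 for Tgfbi, 172 for Postn, 103 for Cilp, 8.09 for Spp1, 5.24 for Tnc and 2.14 for Cthrc1. Neighbours whose library ranges overlapped were Tgfbi with Postn and Spp1 with Tnc. In TAC-Veh Sparc led at 7152 ± 2736 (SD, n = 4), followed by Postn at 4868 ± 2841 and Sparcl1 at 4221 ± 488, with overlapping ranges between neighbours. Cilp followed at 2549 ± 948, its highest library just below the lowest of Sparcl1. Then came, without overlap, Tgfbi (296), Spp1 (192), Cthrc1 (172) and Tnc (25.3), whose ranges overlapped between neighbours. Postn and Cilp, both below Tgfbi or level with it in sham, thus stood several times above it. In TAC-THZ1 Sparcl1 (3016) and Sparc (2228) led again, and Postn (518 ± 220), Cilp (340 ± 129) and Tgfbi (266 ± 39.4) lay close, with overlapping ranges between neighbours. Spp1 (19.0), Cthrc1 (11.2) and Tnc (6.89) were lowest. The order in Sham-THZ1 was that of Sham-Veh.

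Other genes of the pathway were taken from 5 lists, described by counts and medians. Beside each list stand the shares over all genes tested. With TAC under vehicle 21.4% were called higher and 23.6% lower, and with THZ1 in TAC 14.2% were called lower. Of 14 tested genes of other matricellular families, 12 were called higher and 1 lower with TAC under vehicle, where 23.6% of all genes were called lower, with a median log2 difference of 1.76. Comp, a cartilage relative of the thrombospondins, rose from 54.5 ± 10.2 to 2831 ± 1530 (SD, n = 4), and Thbs4, a thrombospondin of stressed muscle, from 109 ± 12.9 to 4916 ± 2784. The CCN protein gene Wisp2 rose from 207 ± 61.3 to 2148 ± 806. With THZ1 in TAC, 12 of the 14 were called lower (median -1.40), including Comp at 249.9 ± 107, Thbs4 at 601 ± 262 and Wisp2 at 588 ± 153 in TAC-THZ1. These 3 were also called higher with TAC under THZ1, by 2.30 (adjusted p = 0.00122), 2.23 (adjusted p = 0.00102) and 1.86 (adjusted p = 6.71e-04).

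Of 16 closer family relatives, 8 passed the filter on low values, with 3 called higher and 1 lower with TAC and, on THZ1 in TAC, 3 lower (medians 0.28 and -0.29). Fstl1, a follistatin-like relative of Sparc, went from 2622 ± 300.0 in Sham-Veh to 11881 ± 4982 in TAC-Veh and 3469 ± 837 in TAC-THZ1. Cilp2, the relative of Cilp, was called higher with TAC, by 3.00 (adjusted p = 6.95e-04), and lower with THZ1, by -3.44 (adjusted p = 6.74e-04), at means of only 2.59 in Sham-Veh and 28.7 in TAC-Veh, below the level set for naming genes. It was chosen after its values were seen. Cilp2, counted in both, held at most 4.77 normalized counts outside TAC-Veh and passed the filter through TAC-Veh libraries alone. Both of its differences were therefore built into the filter. Smoc2, another relative of Sparc, differed by 0.46 (adjusted p = 8.09e-04) with TAC and -0.49 (adjusted p = 0.00144) with THZ1. Tnxb, the tenascin X gene, was called lower with TAC, by -0.63 (adjusted p = 0.0167), in contrast to Tnc, and its difference with THZ1 in TAC was 0.02 (adjusted p = 0.949).

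Among 12 receptors, 7 were called higher and 1 lower with TAC, and on THZ1 in TAC 8 were called lower (medians 0.43 and -0.57). Cd44, the hyaluronan and osteopontin receptor, rose by 1.06 (adjusted p = 3.70e-05) and fell with THZ1, by -0.87 (adjusted p = 6.50e-04). Itga9, an integrin chain that binds tenascin C and osteopontin, rose by 1.12 (adjusted p = 3.34e-06) and fell with THZ1, by -0.91 (adjusted p = 1.13e-04). Itgav, the integrin chain that pairs in receptors for periostin, differed by 0.15 (adjusted p = 0.237) with TAC and was called lower with THZ1, by -0.48 (adjusted p = 0.00265). Itgb6 was the 1 receptor lower with TAC, by -1.23 (adjusted p = 0.0119).

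Of 16 genes of TGF-beta ligands and signalling, 7 were called higher and 3 lower with TAC, and on THZ1 in TAC 7 were called lower (medians 0.22 and -0.15). The ligand genes rose by 1.94 for Tgfb2 (adjusted p = 3.75e-07), 1.18 for Tgfb3 (adjusted p = 4.40e-06) and 0.42 for Tgfb1 (adjusted p = 0.00612). With THZ1 in TAC they were lower, by -1.35 (adjusted p = 6.13e-05), -1.09 (adjusted p = 6.16e-05) and -0.40 (adjusted p = 0.0152). Ltbp3, which holds latent TGF-beta in the matrix, rose by 0.83 (adjusted p = 5.55e-05) and fell with THZ1, by -0.75 (adjusted p = 5.02e-04).

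Among 12 matrix partners, 10 were called higher and 0 lower with TAC, and on THZ1 in TAC 11 were called lower (medians 1.21 and -1.58). P4ha3, counted in both, held at most 8.95 normalized counts outside TAC-Veh and passed the filter through TAC-Veh libraries alone. For this gene both differences were built into the filter. Col5a2, a chain of the collagen that nucleates fibrils, went from 1025 ± 103 in Sham-Veh to 5213 ± 2866 in TAC-Veh and 965 ± 143 in TAC-THZ1. Col3a1, a fibrillar collagen, went from 5643 ± 610.3 to 18370.2 ± 9222 and 4258 ± 941. Eln, the elastin gene, rose by 1.61 (adjusted p = 0.00130) and fell with THZ1, by -1.92 (adjusted p = 9.37e-04), and Fn1, the fibronectin gene, rose by 1.31 (adjusted p = 0.00151) and fell, by -1.66 (adjusted p = 6.50e-04). With TAC under THZ1, 0 of the 12 were called higher and 4 lower than in sham by limma, where 12.8% of all genes were called lower, with a median of -0.43. The difference between these genes and Postn or Cilp, which were called higher there, was not tested. No gene of the 5 lists was called with THZ1 in sham.

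**Figure D4:**
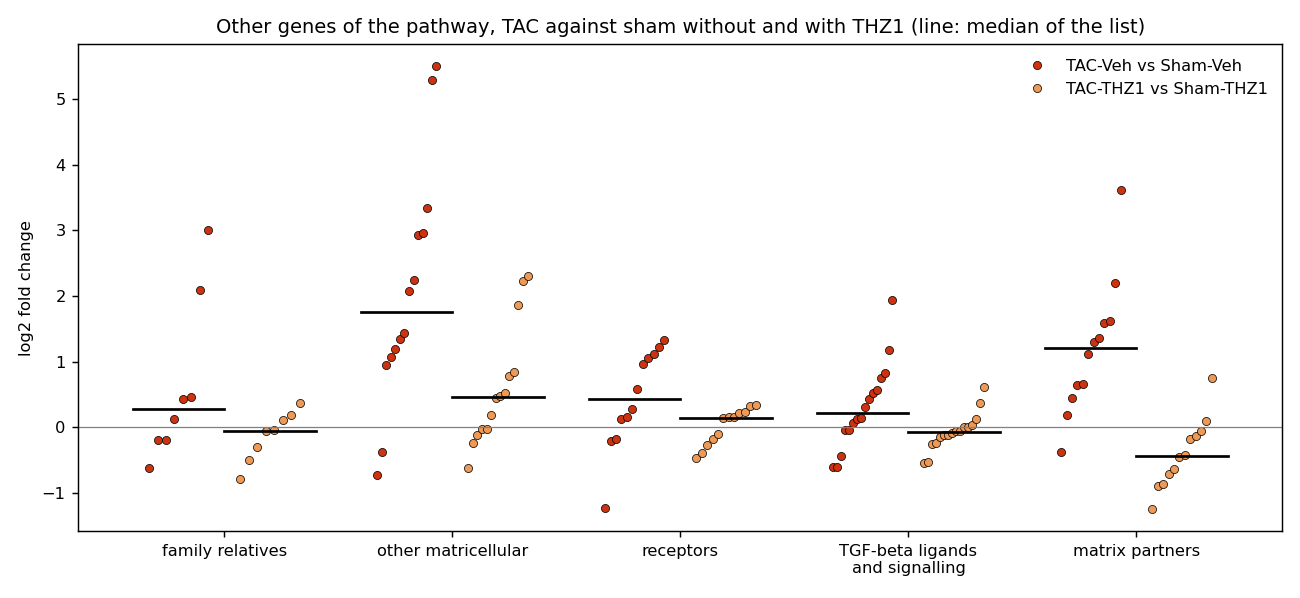
Log2 difference of each tested gene of the 5 lists, with a line at the list's median, for TAC against sham under vehicle (red) and under THZ1 (orange). The 2 comparisons share no library, and the medians are 1.76 and 0.46 for other matricellular genes and 1.21 and -0.43 for matrix partners.

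Markers of the cell types in the tissue moved with the groups. The summed normalized counts of 8 cardiomyocyte markers were 1.28 to 1.39 M in Sham-Veh, 0.638 to 0.941 M in TAC-Veh and 1.11 to 1.39 M in TAC-THZ1. With TAC 4 of these markers (Myh6, Ryr2, Tnni3 and Pln) were called lower and 4 (Actn2, Myl2, Myl3 and Tnnt2) were not called, and the mean of Myh6 alone went from 501105 in Sham-Veh to 225634 in TAC-Veh. With THZ1 in TAC 6 were called higher, as were 2019 of the 13331 genes tested. The sum of 8 fibroblast markers was 41849 to 46633 in Sham-Veh, 51049 to 60785 in TAC-Veh and 41940 to 58777 in TAC-THZ1, with 4 markers called higher with TAC and, on THZ1 in TAC, 3 called lower. Gsn, which was not called with TAC (0.03, adjusted p = 0.864), made up most of this sum, with a mean of 34063 in TAC-Veh. The TAC-Veh library with the most Postn, replicate 2, had the lowest such sum of its group. Of 9 macrophage markers, 5 were called higher with TAC and 0 with THZ1 in TAC by limma, and the sums were 8633 to 10650 in Sham-Veh, 13233 to 16124 in TAC-Veh and 9596 to 19281 in TAC-THZ1. Endothelial sums (7 markers) were 36349 to 39956, 35764 to 53549 and 29147 to 36872 in the same 3 groups, and mural sums (7 markers) were 32310 to 34261, 19614 to 29730 and 23114 to 24524. The part of these shifts in the results for the 8 genes was not tested.

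Epicardial and atrial markers were low. The 7 epicardial markers summed to 136 to 219.6 in Sham-Veh, 153 to 306 in TAC-Veh and 156 to 358 in TAC-THZ1. The 5 atrial markers summed to 86.2 to 105 in Sham-Veh, 532 to 1400 in TAC-Veh and 169 to 346 in TAC-THZ1, and Dkk3 alone averaged 843 in TAC-Veh. The other defining atrial genes stayed low, with TAC-Veh means of 48.5 for Myl4, 2.33 for Myl7, 0.39 for Sln and 0 for Bmp10. Dkk3 was set apart from these after its values were seen, and how much atrium the libraries held was not tested.

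**Figure D5:**
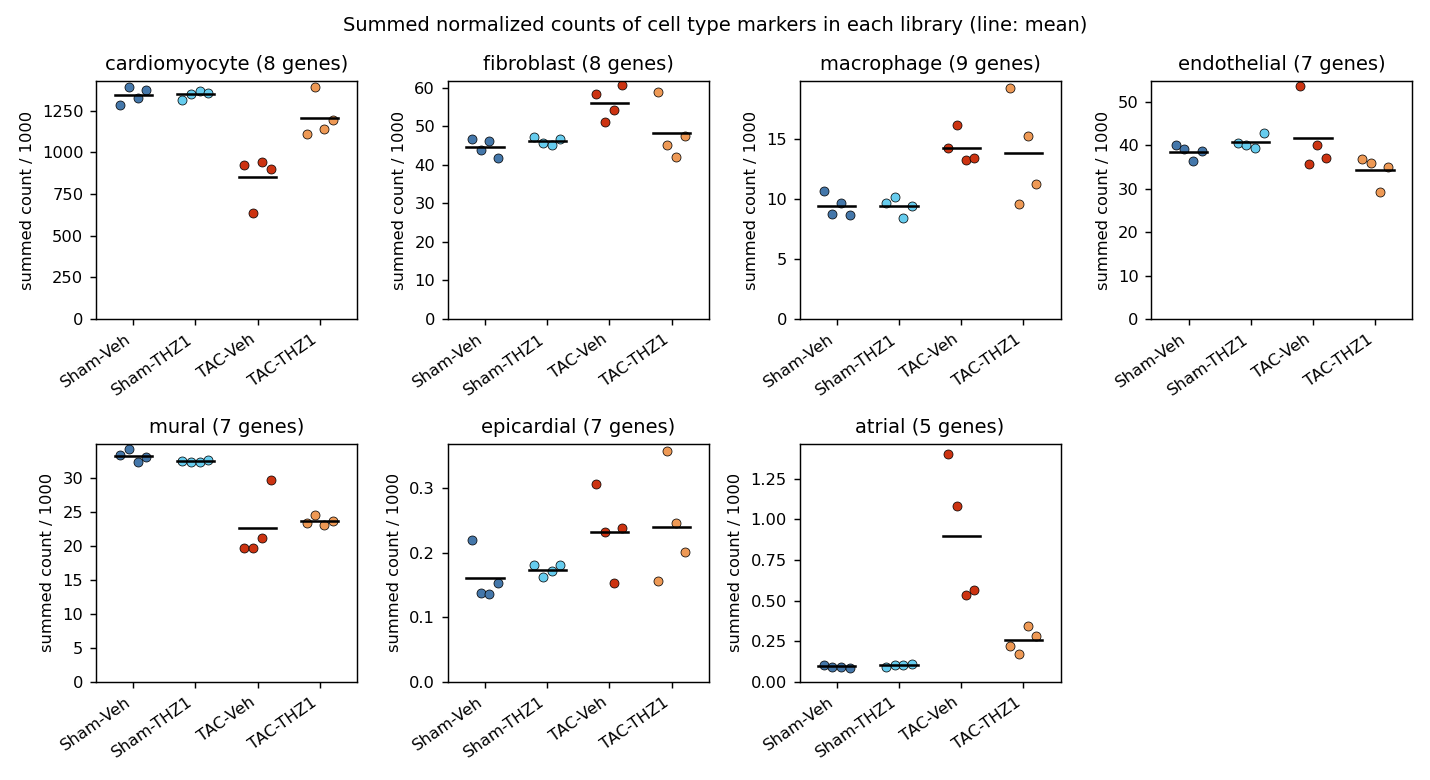
Summed normalized counts, in units of 1000, of the markers of 7 cell types in each library, with a line at the group mean and each axis starting at 0. The cardiomyocyte sums of the 4 TAC-Veh libraries, at most 0.941 M, lie below those of every other library, and the macrophage sums of TAC-THZ1 range from 9596 to 19281.

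The genes whose log2 values followed 7 of the 8 most closely over the 16 libraries were taken among 10317 genes by Pearson's r, as a description. All points share the 4 groups, so a high r reflects the group means above all. The closest to Postn were Bgn (0.996), Emp1 (0.996) and Uck2 (0.993), and to Cilp Ltbp2 (0.995), Bgn (0.993) and Dio2 (0.992). For Sparc they were Col5a2 (0.983), Loxl2 (0.977) and Mmp2 (0.972), and for Cthrc1 Olfml3 (0.984), Tmem45a (0.981) and Rcn3 (0.980). Spp1 was followed by Panx1 (0.984), Anxa2 (0.982) and Dap (0.980), and Tnc by Fam198b (0.971), Lhfpl2 (0.970) and Igf1 (0.956). Those of Sparcl1 were Ntn4 (0.957), Eps15 (0.924) and Col4a3 (0.916).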

How the data were processed

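RNA of heart ventricles from 16 mice was sequenced from stranded mRNA libraries. Reads were aligned by the authors with TopHat 2.1.1 to mm9, counted per GENCODE gene with htseq-count on the reverse strand and divided by DESeq2 size factors, so the deposited signal is a normalized count per gene. Dividing each library by its smallest step gave whole reads for 100% of values (tolerance 0.02 reads). Gene positions and exon lengths came from GENCODE on NCBIM37, promoter windows from RefSeq.

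Genes with at least 10 normalized counts in at least 4 libraries (13331) were tested on log2(normalized count + 1) by limma 3.58.1 (R 4.3.3), with 4 group means in 1 fit, no covariates and a variance trend. Adjusted p-values follow Benjamini and Hochberg. Fold thresholds were those of the study's methods. Ratios were tested by exact permutation with SciPy 1.17.1. Alternatives included edgeR 4.0.16 and DESeq2 1.42.0 on the recovered reads. The limma, edgeR and DESeq2 fits were checked on simulated data. The simulation gave each gene the same spread (dispersion) in all groups, unlike these libraries, so it does not cover unequal spread. No pairing of libraries by replicate number was seen, and the labels gave no batch.

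The 8 genes and the lists were chosen with earlier results of these data known. In each list the 3 genes with the largest TAC difference among called genes with a mean of at least 100 were named, besides Tgfb1, Tgfb2, Tgfb3, Itgav, Cd44 and Fn1. For each of the 8 genes, the 3 tested genes of that mean with the highest Pearson's r were named, except that those of Tgfbi are not reported here.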

Additional observations from a re-analysis of the deposited data

Results flagged for a closer look

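In several groups of 4 libraries, 1 library stood apart from the other 3 by a gap that, as a share of the group's range, passed the 95% critical value of Dixon's test. These were the highest library of Sham-THZ1 for Tnc (0.923) and Cd44 (0.846), the highest of Sham-Veh for Cthrc1 (0.842), Thbs4 (0.870) and Wisp2 (0.879), the lowest of TAC-Veh for the summed cardiomyocyte markers (0.871) and the highest of TAC-Veh for the summed mural markers (0.852). They were 7 of 140 groups examined, and chance gives about 1 in 20, which is 7.

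By the interaction in limma at an adjusted p under 0.05, the effect of THZ1 differed between constricted and sham hearts for 5 of the 8 genes. All 5 were called lower, as were 5.62% of all genes. The calls of Tnc and Spp1 were lost with edgeR. Leaving out 1 library at a time, they were lost in 12 and 8 of 16 fits. The difference of log2 differences was -3.04 for Postn, -1.71 for Tnc, -2.69 for Spp1, -1.66 for Sparc and -2.85 for Cilp. Among the other genes named it was -1.72 for Fstl1, -3.20 for Comp, -3.06 for Thbs4, -1.48 for Wisp2, -0.79 for Itga9, -0.92 for Cd44, -1.33 for Tgfb2, -1.18 for Tgfb3, -0.96 for Ltbp3, -2.37 for Col5a2, -2.51 for Eln, -2.01 for Col3a1 and -1.94 for Fn1. The interaction was not called for Tnxb (-0.16), Smoc2 (-0.27), Itgb6 (0.83), Itgav (-0.34) or Tgfb1 (-0.48). Most of the other genes were named for a large difference between TAC-Veh and Sham-Veh. The interaction uses the same libraries, so this choice favours an interaction of the opposite sign.

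The log2 ratio of Sparc to Sparcl1 was lower with THZ1 in TAC, by -1.13, and higher with THZ1 in sham, by 0.14, with no overlap between libraries in either comparison. The difference between these effects was not tested.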

How the results depend on the processing

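The counts of the 8 genes called with TAC under vehicle, with THZ1 in TAC and with THZ1 in sham stayed within 1.5 times of the values given under every alternative. The ratio differences called with 4 libraries a group moved by less than 1.5 times leaving out 1 library, and those not called ranged from -0.28 to -0.096 (Sparc to Sparcl1, TAC under THZ1) and -0.18 to -0.018 (Postn to Tgfbi, THZ1 in sham). With TAC under THZ1, array weights called 5 genes instead of 3, adding Spp1 (adjusted p = 0.0129) and Tgfbi (0.0273), and Spp1 was also called by DESeq2 (0.0472) and with the 2 groups alone (0.00426). For the interaction, edgeR and an adjusted p under 0.01 each called 3 genes instead of 5, and leaving out 1 library at a time gave 3 to 7. The count was 3 without Sham-Veh 2 or 3, Sham-THZ1 1, 2 or 3, TAC-Veh 2, or TAC-THZ1 2 or 4, each of which ended the calls of Tnc and Spp1, and the Tnc call was also lost without Sham-Veh 4, Sham-THZ1 4, TAC-Veh 4 or TAC-THZ1 1 (adjusted p over all 16 such fits 0.0174 to 0.0990 for Tnc and 0.00623 to 0.0719 for Spp1). The Tnc interaction was lost with no filter (0.0660), upper-quartile scaling (0.0510), scaling to reads outside mitochondrial genes (0.0558) and robust eBayes (0.0516). The interaction of Sparcl1 was gained in 6 alternatives and that of Cthrc1 in 3, and Spp1 with TAC under THZ1 was gained in 8 in all, 5 of them leaving out 1 library. Signs turned only for differences near 0 that were not called. With THZ1 in sham, leaving out 1 library gave -0.18 to 0.016 for Postn, -0.18 to 0.13 for Tnc, -0.18 to 0.093 for Cilp and -0.027 to 0.053 for Tgfbi, and scaling to reads outside mitochondrial genes gave -0.0016 for Tgfbi. With TAC under THZ1, Sparcl1 was 0.00072 with that scaling, 0.0092 with array weights and -0.076 to 0.027 leaving out 1 library. The causes were not tested. The ratio tests cannot pass the threshold with 3 libraries in a group. Same-numbered libraries correlated at -0.43 to 0.16 in their deviations from the group means, and 2 of 16 libraries correlated best with a library of their own number. No pairing by number was seen, though such correlations cannot exclude it. With the replicate block the counts were 8, 7, 0, 3 and 5 in the order of the report, with the Tnc interaction lost (adjusted p = 0.0733) and that of Sparcl1 gained (0.0389). Counts under 10 reads in sham limit Cthrc1. Over all genes, calls with THZ1 in sham went from 9 to 513 with array weights, 465 with the 2 groups alone and 33 with DESeq2, and to between 3 and 15 leaving out 1 library. With THZ1 in TAC 3918 became 2412 with array weights, 1399 with the 2 groups alone, 2058 at an adjusted p under 0.01 and 729 with the fold threshold. With TAC under THZ1 3220 became 5011 with array weights, 1254 at p under 0.01, 270 with the fold threshold, 1978 without TAC-THZ1 1 and 2066 without Sham-THZ1 4. For the interaction 1336 became 263 at p under 0.01 and 690 to 2479 leaving out 1 library, and with TAC under vehicle 6003 became 1068 with the fold threshold.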
